A study of Homo sapiens with 18 samples.

Results

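The genes described here are 10 early response genes, the EGR family (EGR1, EGR2, EGR3 and EGR4), the NR4A family (NR4A1, NR4A2 and NR4A3), IER2, SRF and MYC, in A549 cells exposed to silica nanoparticles (NPs). They were chosen by name, with earlier results of these data known: every non-control probe whose gene name in the scanner files was 1 of these 10 was taken, which gave 17 probes of 41000 on the array and 10 genes of 30815. A549 is a human lung adenocarcinoma cell line of epithelial type. Cells were exposed in medium without serum for 2 h to 0.02 mg/mL of Ludox silica NPs, either SM30 with a diameter of 9 nm or AS30 with a diameter of 18 nm, and then returned to complete medium with serum for a recovery of 3 h or 22 h. There were 6 groups of 3 biological replicates, lettered A, B and C: SM30 at 3 h, AS30 at 3 h and AS30 at 22 h of recovery, each with its own controls, which went through the same steps, the change of serum included, without NPs. All groups are the same cell line in monolayer, so the values describe 1 line and no other lung cell.

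Early response genes are transcribed within minutes of a stimulus such as serum, growth factors or stress, without new protein synthesis, and most of their transcripts decay quickly. EGR proteins are zinc finger transcription factors induced mainly through the MAP kinase pathway, and NR4A proteins are orphan nuclear receptors whose activity is set largely by how much of them is made. SRF is the factor that carries the serum signal to many of these genes: it binds the CArG box, a short motif with an A and T core, together with ternary complex factors such as ELK1 or with actin-regulated MRTF cofactors. MYC drives growth and ribosome genes as a partner of MAX, and IER2 is a small nuclear protein of the same early class.

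Promoter sequence of the members was read from RefSeq (build GRCh38.p14) for the 250 bases before the annotated start, and 7 members had windows used here, 11 in all, since some genes have several starts. EGR3, NR4A2 and MYC had no window used. The windows below are those of EGR1, EGR2 and SRF, the 3 members with a CArG box, and of NR4A3, whose level differed between the AS30 control groups by recovery time. Signals of EGR1, EGR2 and SRF were lower with SM30 in values given further on, but EGR2 did not pass and SRF was not lower at 22 h. The mean signal of EGR4, whose window had no CArG box, was also lower with SM30 (12.7 against 33.3 in the controls). Its groups overlapped and it did not pass. Each is on the gene's strand. Capitals mark a CArG box or the motif TGACGT on either strand (ACGTCA when read from the other strand), the core of the CREB binding site, and no 2 of the marked matches overlap.
EGR1, chr5:138465229-138465478 (plus strand): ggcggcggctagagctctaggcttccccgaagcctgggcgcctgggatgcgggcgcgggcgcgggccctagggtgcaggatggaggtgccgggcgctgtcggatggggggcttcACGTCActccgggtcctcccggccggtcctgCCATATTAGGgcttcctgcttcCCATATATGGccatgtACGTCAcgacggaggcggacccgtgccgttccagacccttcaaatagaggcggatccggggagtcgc
EGR2, chr10:62816367-62816616 (minus strand): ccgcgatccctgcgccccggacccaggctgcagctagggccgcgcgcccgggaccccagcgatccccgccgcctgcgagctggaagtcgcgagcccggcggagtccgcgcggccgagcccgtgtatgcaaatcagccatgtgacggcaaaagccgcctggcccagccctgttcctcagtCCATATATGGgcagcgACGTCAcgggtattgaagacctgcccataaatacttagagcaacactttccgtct
SRF, chr6:43171019-43171268 (plus strand): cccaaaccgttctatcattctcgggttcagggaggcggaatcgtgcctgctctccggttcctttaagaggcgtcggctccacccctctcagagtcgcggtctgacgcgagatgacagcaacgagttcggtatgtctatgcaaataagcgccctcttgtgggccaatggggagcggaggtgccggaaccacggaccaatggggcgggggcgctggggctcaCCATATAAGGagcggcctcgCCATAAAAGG
NR4A3, chr9:99821635-99821884 (plus strand): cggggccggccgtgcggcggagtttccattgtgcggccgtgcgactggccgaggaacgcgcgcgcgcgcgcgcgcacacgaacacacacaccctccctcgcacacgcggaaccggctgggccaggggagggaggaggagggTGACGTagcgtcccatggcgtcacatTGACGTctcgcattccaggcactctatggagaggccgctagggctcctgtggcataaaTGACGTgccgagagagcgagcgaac
The EGR1 window held 2 CArG boxes, whose last bases lay 96 and 74 bases before the start, and the SRF window also held 2, whose last bases lay 21 and 1 bases before it. EGR2 had 1 CArG box, ending 62 bases before the start, in the window shown and in neither of the other windows of this gene. NR4A3 had no CArG box and 3 copies of TGACGT, ending 104, 78 and 20 bases before the start. Among all 35116 windows of this length 1.16% held a CArG box and 7.1% held TGACGT. The SRF window also held 1 copy of GCGGGGGCG, a binding motif of EGR proteins that 4.72% of all windows held. CACGTG, the E-box that MYC binds, was in 1 other window of EGR2 and in 6.34% of all windows, and AAAGGTCA, the monomer motif of NR4A proteins, was in 0 of the 11 windows and in 1.05% of all. A match describes these letters and is not a measured site, and a link between a motif and a change was not tested.

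The arrays are 1-colour Agilent arrays, and a signal is given as the background-corrected spot intensity after quantile normalisation over the 18 arrays. On an array 66.0% to 83.7% of spots were positive and significant, and 51.9% to 72.4% were well above background; no spot was saturated. The SM30 set lay on 2 slides and the AS30 sets on 3 others. The AS30 arrays at 3 h all lay on 1 slide and their controls on another, so slide and treatment cannot be told apart within that comparison. The epithelial markers KRT8, KRT18, KRT19, CDH1 and EPCAM were well above background on all 18 arrays, while PTPRC, COL3A1 and PECAM1, markers of blood cells, fibroblasts and endothelium, were so on 0 arrays and the endothelial CDH5 on 1. The probes of CD3E, CD14 and COL1A1, of the same marker list, were well above background on 18 arrays, at mean signals of 139, 234 and 141. The reference gene GAPDH differed by -0.03, 0.05 and 0.06 on the log2 scale in the 3 exposures.

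Of the 10 genes, 7 had a probe with enough measured spots to be tested, 12 probes in all: EGR1, NR4A1, NR4A2, NR4A3, IER2, SRF and MYC. The tests used log2 ratios of each treated array over the control array of the same letter, limma's moderated test and a Benjamini-Hochberg adjustment that covers every probe tested (threshold 0.05), and for each gene the probe with the highest mean signal. With SM30 at 3 h EGR1 and SRF fell and NR4A2 rose, 3 of the 7, where 7.49% of all probes passed. With AS30 at 3 h NR4A2 rose and SRF fell, 2 of the 7, against 2.52% of all probes. With AS30 at 22 h EGR1 fell and NR4A3 rose, again 2 of the 7, against 3.58% of all probes. Since these genes and the lists below were chosen with earlier results of these data known, such counts and medians beside all probes are descriptions only. The median log2 change over the 7 genes was -0.031, 0.026 and -0.009 in the 3 exposures, beside -0.054, 0.013 and -0.0047 over all probes. So the genes of this class did not move one way: within each exposure some rose and others fell. A level here is that of bulk RNA, in which fewer responding cells and less RNA per cell cannot be told apart. With slide as a fixed block 0 of the 7 passed in any exposure by limma, and 1 in each was under 0.05 without adjustment. The log2 changes were then -1.30 for EGR1, 1.48 for NR4A2 and -0.54 for SRF with SM30, 2.69 for NR4A2 and -0.58 for SRF with AS30 at 3 h, and -2.13 for EGR1 and 0.25 for NR4A3 with AS30 at 22 h. All had the sign of the main values. That fit leaves out the pairing by letter. For SM30 it rests on treated replicate A, the only treated array on the slide of the controls, and at 22 h on control replicate C. The AS30 slides at 3 h are linked only through control replicates A and B at 22 h. These signs are therefore no separate support, and the part of the slides in the calls was not tested further.

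**Figure D1:**
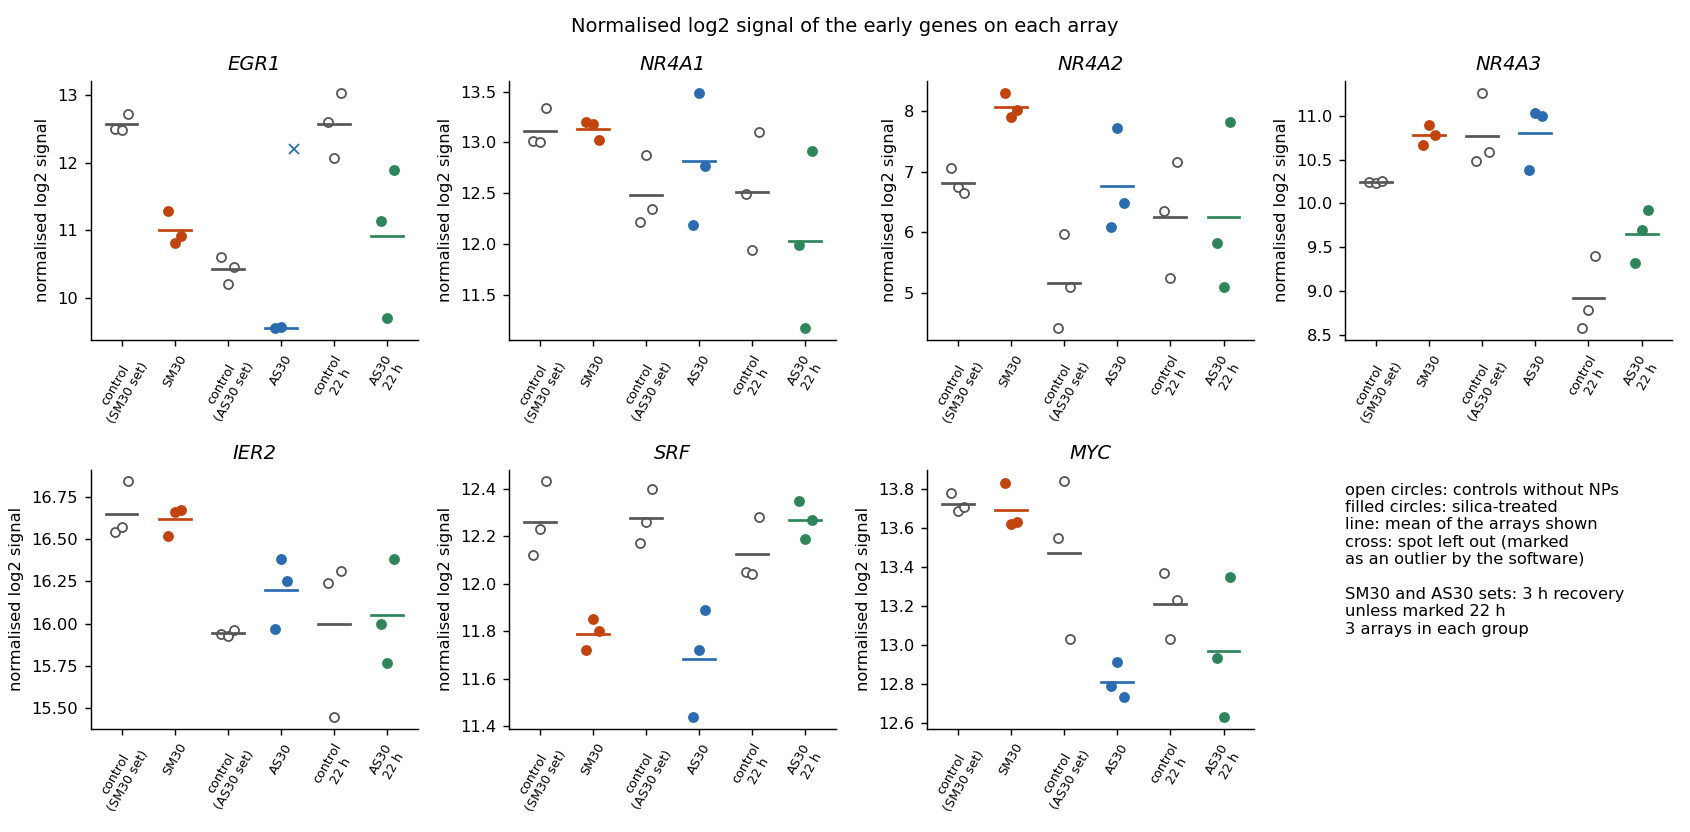
Normalised log2 signal (vertical axis, a separate scale for each gene) of the 7 tested early genes on each of the 18 arrays, by group (horizontal axis), with a line at each group mean; the cross is the 1 EGR1 spot left out because the software marked it as an outlier. EGR1 lies lower in the treated arrays than in the controls of each set, apart from that cross, and its controls differ among sets: their mean is 10.42 in the AS30 set at 3 h, 12.58 in the SM30 set and 12.57 at 22 h.

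EGR1, early growth response 1, is a zinc finger factor that serum and stress induce within the first hour. Its single probe lies at chr5:137832790-137832849 on build hg18 and was well above background on all 18 arrays. After SM30 its signals were 2490, 1800 and 1920 in replicates A, B and C, and in the controls they were 5850, 5740 and 6810. All 3 treated arrays lay below all 3 controls, and the level was 2.98-fold lower, a log2 change of -1.58 (SE 0.24, limma adjusted p = 0.012). At 22 h after AS30 the signals were 2260, 835 and 3780, against 6200, 4340 and 8410 in the controls. These groups did not overlap either, though the treated arrays spread widely, and the level was 3.16-fold lower (log2 change -1.66, SE 0.24, adjusted p = 0.021).

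At 3 h after AS30 EGR1 had 2 usable treated arrays, with signals of 752 and 754 against 1570, 1180 and 1400 in the controls. Both lay below the controls, with a log2 change of -0.85 (SE 0.29, adjusted p = 0.14), which did not pass. The spot of replicate C was marked as an outlier by the software and left out. It read 4730, above every control, and with it the log2 change was 0.02. That 1 spot also bears on the other calls, because the exposures share an estimate of the spread: with outlier spots kept, the adjusted p was 0.089 for SM30 and 0.096 for AS30 at 22 h, at the same log2 changes of -1.58 and -1.66. The SM30 call was also lost without replicate B or C (adjusted p = 0.089 and 0.092, log2 change -1.53 and -1.45), and the call at 22 h without AS30 replicate A at 22 h (adjusted p = 0.10, log2 change -1.76) or without SM30 replicate B (adjusted p = 0.054).

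**Figure D2:**
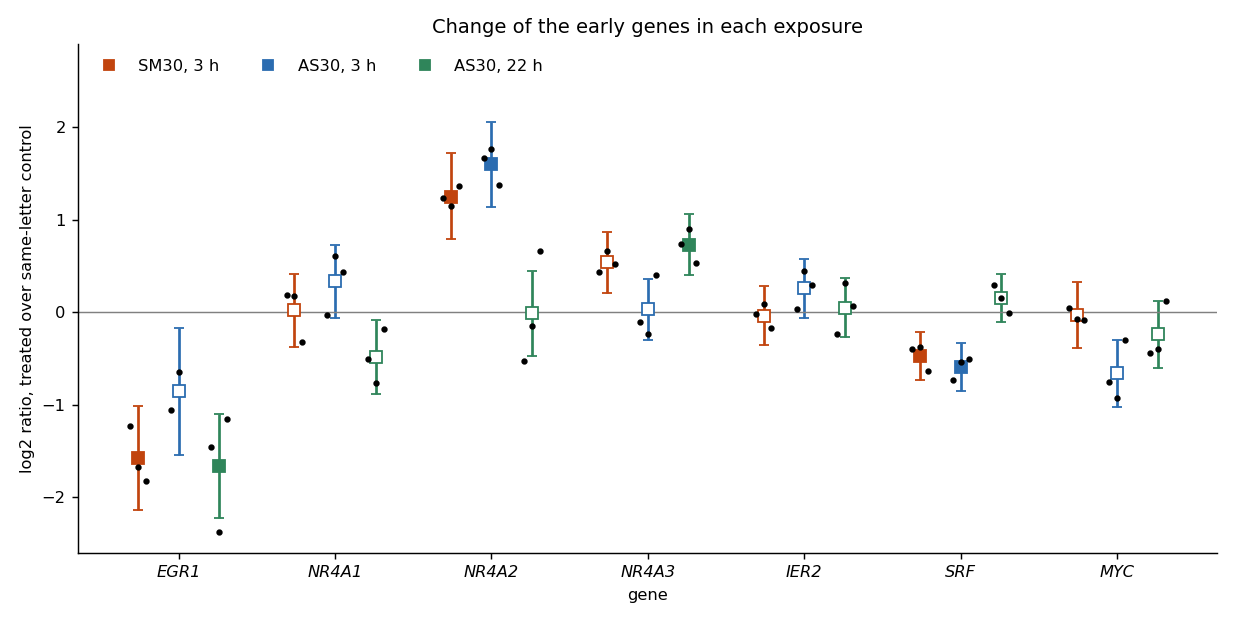
Log2 ratio of treated over same-letter control arrays (vertical axis) for the 7 tested early genes (horizontal axis) in the 3 exposures; squares are the means with 95% confidence intervals, filled where the adjusted p was below the threshold, and dots are the single ratios. The EGR1 ratios run from -1.23 to -1.82 with SM30 and the NR4A2 ratios from 1.15 to 1.76 over both exposures at 3 h, while those of NR4A2 at 22 h lie on both sides of 0, from -0.53 to 0.66.

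EGR2, EGR3 and EGR4, relatives of EGR1 that share its DNA-binding zinc fingers, were too dim for the test, with 1 probe each that was well above background on 6, 2 and 3 of the 18 arrays. EGR2 was well above background in the SM30 set alone of the 3 sets, with signals of 21.2, 19.5 and 21.4 after SM30 and 40.8, 40.5 and 41.3 in the controls. All treated arrays lay below all controls, 1.98-fold lower on average, but in a fit that kept dim spots the adjusted p was 0.34, so this difference did not pass. On no array of the AS30 sets did EGR2 reach well above background.

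EGR3 read 15.4, 17.7 and 29.9 after SM30, well above background in replicates A and C, and its SM30 controls, at 6.33, 5.8 and 6.1, were not well above background. From the dimmest signal that counted as well above background on those control arrays, the level after SM30 was at least 1.14-fold higher, and the fit that kept dim spots gave an adjusted p of 0.2. Measured group means were 20.1 and 6.07. EGR4 was well above background in SM30 control replicates B and C, at 60.4 and 61.3, and after SM30 in replicate C alone of the 3, at 17.6. Its SM30 groups overlapped, since control replicate A was below treated replicates A and C. Mean EGR4 signals were 12.7 after SM30 and 33.3 in the controls. The limma fit that kept dim spots gave a log2 change of -1.4 (SE 0.7, adjusted p = 0.36).

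**Figure D3:**
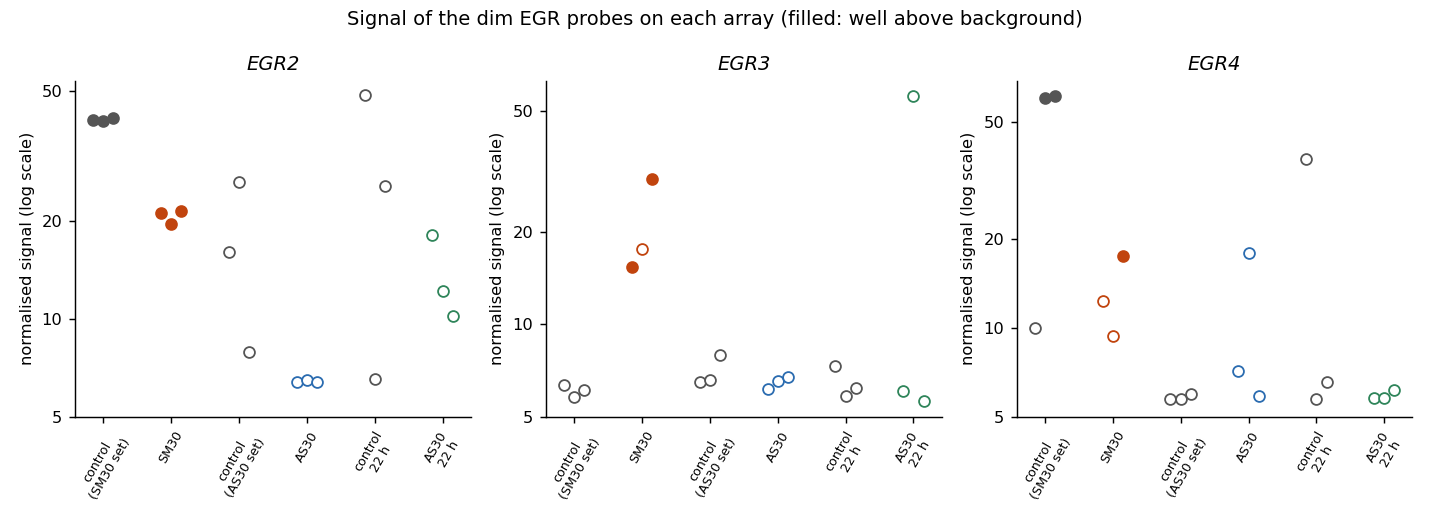
Normalised signal (vertical axis, log scale) of the EGR2, EGR3 and EGR4 probes on each array by group (horizontal axis), all spots kept; filled circles are spots well above background and open circles are not. The filled points of EGR2 lie near 41 in the SM30 controls and near 21 after SM30, and all filled points of the 3 genes lie in the SM30 set.

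NR4A2, also called NURR1, is an orphan receptor that binds DNA as a monomer and is induced by cAMP and stress signals. Its probe lies at chr2:156889973-156890032 on build hg18. After SM30 its signals were 315, 238 and 259 in replicates A, B and C, against 133, 108 and 99.9 in the controls. The groups did not overlap, and each pair gave nearly the same log2 ratio, 1.24, 1.15 and 1.37. The level was 2.38-fold higher (log2 change 1.25, SE 0.20, adjusted p = 0.011).

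After AS30 at 3 h NR4A2 read 68.2, 211 and 89.1, against 21.5, 62.5 and 34.2 in the controls, of which replicate B alone was well above background. The lowest treated array was just above the highest control, and the log2 ratios by letter were 1.67, 1.76 and 1.38. The mean level was 3.03-fold higher (log2 change 1.60, SE 0.20, adjusted p = 0.013). At 22 h the signals were 56.3, 34.2 and 226 after AS30 and 81.3, 38.1 and 143 in the controls, which overlapped, with a log2 change of -0.01 (SE 0.20, adjusted p = 0.99).

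The rise of NR4A2 at 3 h was closer between same-letter arrays than between arrays of a group: without pairing by letter the log2 changes were 1.25 and 1.60 as before, but the adjusted p was 0.25 for SM30 and 0.15 for AS30. With normexp in place of the software's background correction, the change was 0.39 after SM30 (adjusted p = 0.032) and 0.37 after AS30 (adjusted p = 0.066). With slide as a random block it was 1.23 after SM30 (adjusted p = 0.21) and 1.51 after AS30 (adjusted p = 0.08), so neither passed. That fit also left out the pairing by letter, without which neither passed already, and its correlation within slides was -0.0837. The SM30 call was also lost with the 3 controls averaged before the ratio (1.25, adjusted p = 0.074), and the AS30 call with its 3 ratios fitted without those of the other exposures (1.60, adjusted p = 0.24). The SM30 call was lost without any 1 of its replicates (adjusted p = 0.061, 0.071 and 0.086 without A, B and C), and the AS30 call without its replicate A or B (adjusted p = 0.055 and 0.078), with log2 changes from 1.19 to 1.57.

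NR4A3, or NOR1, is the third orphan receptor of the family. Its tested probe, at chr9:101668806-101668865 on build hg18, read 1630, 1900 and 1760 after SM30 and 1210, 1200 and 1230 in the controls. The groups did not overlap and the log2 change was 0.54 (SE 0.14), but the adjusted p of 0.06 did not pass. After AS30 at 3 h the signals were 1330, 2090 and 2030 against 1430, 2450 and 1530, a log2 change of 0.03 (SE 0.14, adjusted p = 0.93), with overlapping groups. At 22 h they were 640, 829 and 977 after AS30 against 383, 443 and 676, and the log2 change of 0.73 passed (1.65-fold, SE 0.14, adjusted p = 0.039) although treated replicate A was below control replicate C.

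The NR4A3 call at 22 h was lost in 13 of 22 alternatives, among them without each AS30 replicate at 22 h in turn (adjusted p = 0.17, 0.093 and 0.077 without A, B and C). It was also lost without any single SM30 replicate (adjusted p = 0.065 to 0.075) and without AS30 replicate A at 3 h (adjusted p = 0.063). On the slide that held all 3 treated arrays and control replicate C, the difference was 0.25. A probe for transcript variant 4 of NR4A3 reached well above background on 0 of the 18 arrays.

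NR4A1, or NUR77, the first described of the family and the one most often induced by growth factors, did not pass in any of the 3 exposures. Its brighter probe, at chr12:50739445-50739504 on build hg18, changed by 0.02, 0.34 and -0.48 on the log2 scale (SE 0.17 each, adjusted p = 0.97, 0.27 and 0.15) with SM30, AS30 at 3 h and AS30 at 22 h. The treated and control groups overlapped in each of the 3. At 22 h all 3 log2 ratios were negative, -0.50, -0.77 and -0.18. A second probe, for transcript variant 3 at chr12:50735930-50735989, varied far more among replicates (SE 0.72) and did not pass either. It changed by 0.21, -1.42 and -1.15 on the log2 scale in the same order (limma adjusted p = 0.89, 0.26 and 0.38). With AS30 at 3 h its sign was opposite to that of the brighter probe, and at 22 h its groups did not overlap. Of the NR4A genes, then, NR4A2 passed in both exposures at 3 h and NR4A3 at 22 h, but the change of NR4A2 between times itself (22 h minus 3 h, -1.61 on the log2 scale, 95% confidence interval -2.27 to -0.95) had an adjusted p of 0.10.

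SRF, the serum response factor, has 3 tested probes. The brightest, at chr6:43256969-43257028 on build hg18, read 3370, 3700 and 3580 after SM30 and 4440, 4810 and 5540 in the controls. The groups were apart and the level was 1.38-fold lower (log2 change -0.47, SE 0.11, adjusted p = 0.044). After AS30 at 3 h it read 2770, 3370 and 3810 against 4600, 4890 and 5410, again with no overlap, 1.51-fold lower (log2 change -0.59, SE 0.11, adjusted p = 0.041). At 22 h it read 5230, 4680 and 4940 after AS30 and 4250, 4210 and 4970 in the controls. These overlapped, and the log2 change of 0.15 (SE 0.11, adjusted p = 0.48) did not pass.

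The other SRF probes agreed in part. The second, at chr6:43256263-43256322, gave log2 changes of -0.75 (SE 0.18, adjusted p = 0.040) with SM30 and -0.67 (SE 0.18, adjusted p = 0.083) with AS30 at 3 h, both in the direction of the first. The third, which lies farthest toward the 5′ end of the gene, at chr6:43254527-43254586, gave -0.43 and 0.44 (SE 0.24 each, adjusted p = 0.30 and 0.28), so that with AS30 its direction was the opposite.

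Both SRF calls were small and near the threshold: each was lost in 11 of 22 alternatives. Leaving out any 1 SM30 replicate ended the SM30 call (adjusted p = 0.12, 0.15 and 0.24 without A, B and C) and the AS30 call (adjusted p = 0.080, 0.079 and 0.061), and leaving out AS30 replicate A or B at 3 h did so too (adjusted p = 0.067 and 0.060 for SM30, 0.15 and 0.16 for AS30). Leaving out AS30 replicate B or C at 22 h moved them just to the threshold or past it (adjusted p = 0.055 and 0.056 for SM30, 0.050 and 0.054 for AS30). The log2 change stayed between -0.54 and -0.32 with SM30 and between -0.63 and -0.52 with AS30 at 3 h in the 22 alternatives.

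**Figure D4:**
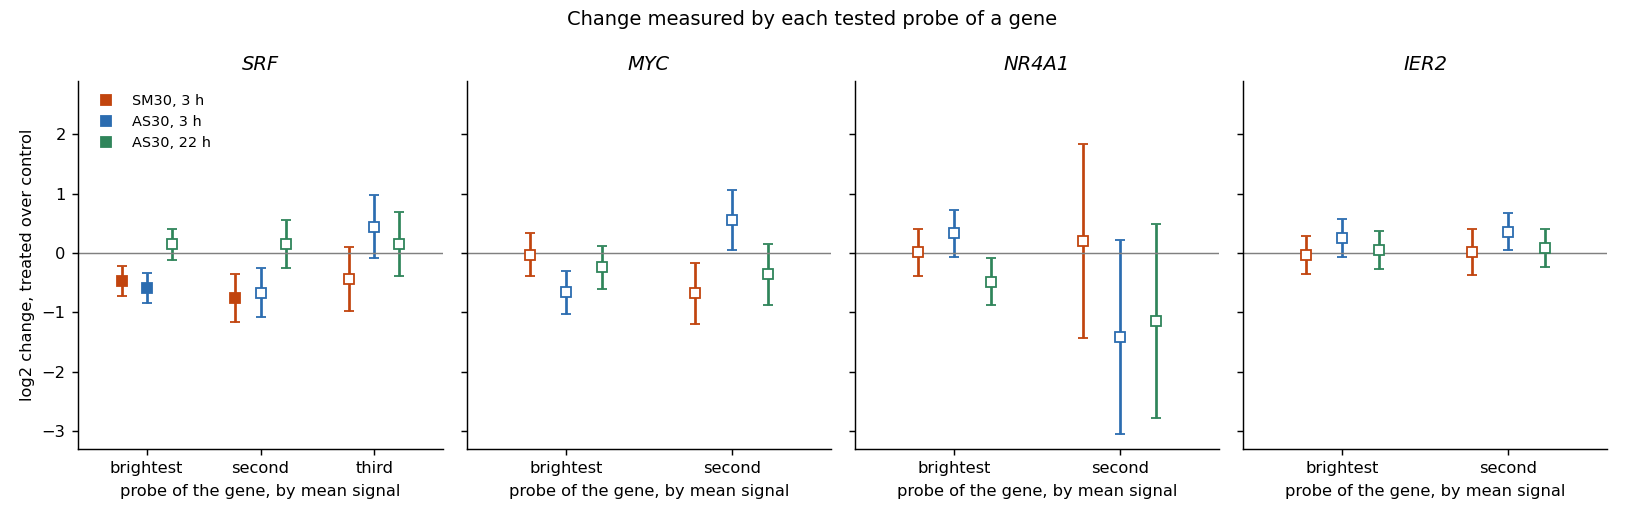
Log2 change of treated over control arrays (vertical axis) measured by each tested probe, ordered by mean signal (horizontal axis), of SRF, MYC, NR4A1 and IER2 in the 3 exposures; bars are 95% confidence intervals and filled squares passed the threshold. The brightest and second SRF probes lie below 0 in both exposures at 3 h, whereas for AS30 at 3 h the third SRF probe (0.44) and the second MYC probe (0.56) lie above 0.

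MYC did not pass in any of the 3 exposures. Its brightest probe read 14600, 12600 and 12700 after SM30 and 14100, 13200 and 13400 in the controls, which overlapped (log2 change -0.03, SE 0.16, adjusted p = 0.92). After AS30 at 3 h it read 7100, 7690 and 6800 against 12000, 14600 and 8350. All treated arrays were below all controls, with a log2 change of -0.66 (1.58-fold lower, SE 0.16), but the adjusted p of 0.065 did not pass; it passed in 4 of 22 alternatives, among them without AS30 replicate C at 3 h (-0.84, adjusted p = 0.031). At 22 h the log2 change was -0.24 (SE 0.16, adjusted p = 0.41), with overlapping groups.

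A second MYC probe, which the array design assigns to a transcript from the upstream P0 promoter, gave other values. With SM30 it read 98.2, 77.0 and 68.8 against 111, 127 and 150 (log2 change -0.68, SE 0.22, adjusted p = 0.11), and with AS30 at 3 h it read 205, 263 and 210 against 134, 142 and 184 (log2 change 0.56, SE 0.22, adjusted p = 0.17). Neither passed, though the groups did not overlap in either, and after AS30 this probe and the brightest had opposite signs. Another MYC probe was well above background on 0 of the 18 arrays and was not tested.

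IER2 had 2 tested probes, and neither passed in any exposure. The brighter, at chr19:13126586-13126645 on build hg18, changed by -0.04, 0.26 and 0.05 on the log2 scale (SE 0.14 each, adjusted p = 0.90, 0.29 and 0.87), and the other by 0.02, 0.36 and 0.08. After AS30 at 3 h the brighter probe read 64200, 85100 and 77900 against 63000, 62300 and 63700 in the controls, which are close together and lie below all 3 treated arrays.

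The responses to the 2 particles at 3 h were compared directly, at the same dose and recovery time, as the SM30 log2 change minus that of AS30. None of the 7 genes passed, beside 0.0140% of all probes. Without adjustment 2 of the 7, MYC and NR4A3, were under 0.05 by limma, as were 4176 of all 28595 probes tested. The difference was -0.72 for EGR1 (95% confidence interval -1.61 to 0.17), -0.35 for NR4A2 (-1 to 0.31), 0.12 for SRF (-0.24 to 0.49), 0.51 for NR4A3 (0.04 to 0.98) and 0.63 for MYC (0.12 to 1.14). With the outlier spot of EGR1 on an AS30 array kept, its difference was -1.59 (adjusted p = 0.34). The intervals leave room for differences of about the size of the changes themselves, so EGR1, which passed with SM30 and not with AS30 at 3 h, was not shown to differ between the particles.

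The AS30 response at 22 h minus that at 3 h passed for 0 of the 7 genes, beside 0.0285% of all probes. Without adjustment 4735 of all 28086 probes were under 0.05 by limma, and so were 4 of the 7 genes. These were NR4A2 (-1.61), NR4A1 (-0.82), SRF (0.74, 95% confidence interval 0.37 to 1.11, adjusted p = 0.12) and NR4A3 (0.70). For EGR1 the difference was -0.81 (-1.69 to 0.08), and -1.68 with its outlier spot kept (adjusted p = 0.28).

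Among the AS30 controls, EGR1 and NR4A3 differed between 22 h and 3 h. The SM30 controls at 3 h had a mean log2 signal of 12.58 for EGR1, about that of the controls at 22 h, 12.57. So EGR1 did not follow recovery time over all 3 control groups. For NR4A3 the SM30 controls stood at 10.24, against 8.92 at 22 h. EGR1 read 6200, 4340 and 8410 in the controls at 22 h against 1570, 1180 and 1400 in the AS30 controls at 3 h, 4.44-fold higher (log2 difference 2.15, SE 0.40, adjusted p = 0.020), and NR4A3 read 383, 443 and 676 against 1430, 2450 and 1530, 3.60-fold lower (log2 difference -1.85, SE 0.25, adjusted p = 0.0034). Neither pair of groups overlapped. These 2 of the 7 genes passed, EGR1 higher and NR4A3 lower at 22 h, against 1.30% of all probes. Within the 1 slide that held control replicate A at 22 h and all 3 AS30 controls at 3 h, the differences were 2.18 and -2.19, a check added after the data were seen. The EGR1 call was lost without control replicate C at 22 h (1.92, adjusted p = 0.066) or replicate B at 3 h (2.04, adjusted p = 0.070), and with outlier spots kept (adjusted p = 0.11), while the NR4A3 call held in all 16 alternatives run, between -2.19 and -1.12.

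The controls of the SM30 set and of the AS30 set at 3 h, labelled as the same condition, also differed: EGR1 was 4.45-fold higher in the SM30 controls (log2 difference 2.16, SE 0.40, adjusted p = 0.0023), and IER2 1.63-fold higher (0.71, SE 0.21, adjusted p = 0.022). These 2 of the 7 passed, and so did 26.8% of all probes. Each set has controls of its own and the 2 sets share no slide, so the set, the culture and the slide cannot be told apart. IER2 no longer passed when arrays were scaled to the 75th percentile (0.29, adjusted p = 0.42) or without SM30 control replicate C (0.61, adjusted p = 0.080). The dim second NR4A1 probe went the other way, lower in the SM30 controls by -2.62 (SE 0.69, adjusted p = 0.013), with overlapping groups. Levels of EGR1 after NPs are therefore given against the controls of the same set only: the SM30-treated cells, at 1800 to 2490, had more EGR1 signal than the AS30 controls, at 1180 to 1570.

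Ranked by mean level in the controls, EGR1 stood at a log2 signal of 12.58 in the SM30 set, 12.57 at 22 h and 10.42 in the AS30 set at 3 h, so the first and second differed by less than their spread. NR4A3 stood at 10.77 in the AS30 set at 3 h, 10.24 in the SM30 set and 8.92 at 22 h, and the first and second differed by -0.53 (SM30 minus AS30, adjusted p = 0.13). By its brightest probe SRF lay between 12.12 and 12.27 in all 3 control groups, and neither difference tested between them passed (adjusted p = 0.63 and 0.95). The third SRF probe, a dim one, was lower in the SM30 than in the AS30 controls, at a mean log2 signal of 6.22 against 6.86 (difference -0.64, SE 0.21, adjusted p = 0.036), and the groups did not overlap.

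Other immediate-early genes, a list of 32 that holds the FOS, JUN, KLF, DUSP and CCN families, gave 12 higher and 3 lower of 32 with SM30, where 7.49% of all probes passed. The median log2 change of the list was 0.59, beside -0.054 over all probes. KLF6, a zinc finger factor, rose most (2.17, SE 0.17, adjusted p = 0.00095), JUN, a subunit of AP-1, rose by 1.35 (SE 0.17, adjusted p = 0.0047), and the lower ones were CCN2 (-1.09, SE 0.15, adjusted p = 0.0072), CCN1 (-0.82) and PLK2 (-0.89). With AS30 at 3 h 4 were higher and 2 lower, against 2.52% of all probes, with a median of 0.37. KLF6 (1.49, SE 0.17, adjusted p = 0.0091), DUSP5, PLK3 and KLF2 rose, and CCN1 (-1.29, SE 0.17, adjusted p = 0.014) and CCN2 (-1.28) fell. CCN1 and CCN2 encode matricellular proteins and are known targets of SRF with MRTF and of YAP. At 22 h 0 of the 32 passed, against 3.58% of all probes, and the median was -0.032. Without adjustment 9 of the 32 were under 0.05 by limma, as were 6452 of all 28155 probes. JUN, PLK2, DUSP5, PLK3 and KLF2 were named after their values were seen.

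**Figure D5:**
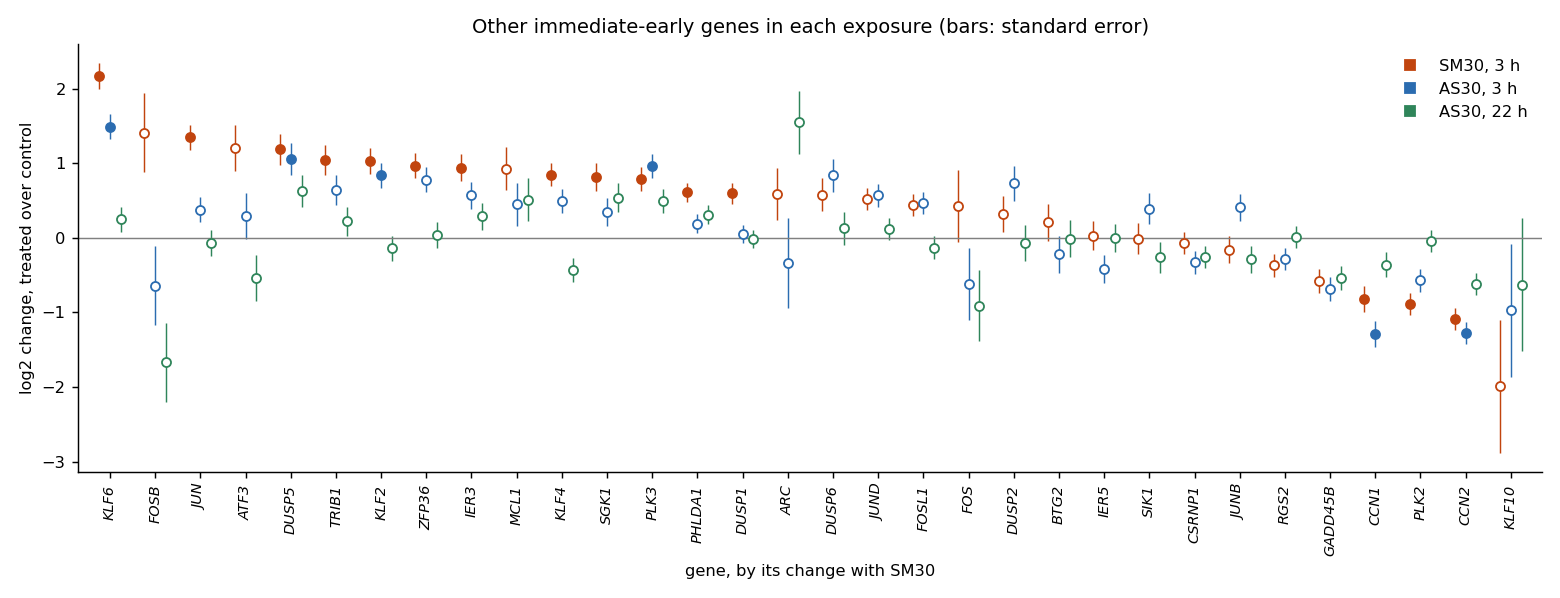
Log2 change of treated over control arrays (vertical axis) of 32 other immediate-early genes in the 3 exposures, ordered by the change with SM30 (horizontal axis); bars are standard errors and filled circles passed the threshold. KLF6 has the highest filled points, at 2.17 with SM30 and 1.49 with AS30 at 3 h, CCN1 and CCN2 lie below 0 in both, and no point at 22 h is filled.

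Partners of MYC were measured as a list of 11 genes. MXD1 and MNT, repressors that compete with MYC for MAX, rose with SM30 (MXD1 by 2.06, SE 0.17, adjusted p = 0.00095; MNT by 1.63, SE 0.18, adjusted p = 0.0027) and with AS30 at 3 h (MXD1 by 1.38, adjusted p = 0.010; MNT by 1.02, adjusted p = 0.030), and no partner passed at 22 h, where 5 were under 0.05 by limma without adjustment. Over all probes 7.49%, 2.52% and 3.58% passed in the 3 exposures, and at 22 h 6452 of 28155 were under 0.05 by limma without adjustment. The list's median was 0.083, 0.41 and 0.14. Of 20 MYC target genes 3 fell with SM30, where 7.49% of all probes passed: TERT, the catalytic subunit of telomerase (-1.59, SE 0.24, adjusted p = 0.0089), POLR1B, a subunit of RNA polymerase I (-0.78), and RRS1, a ribosome assembly factor (-0.61, adjusted p = 0.033). With AS30 0 of the 20 targets passed at either time, and the medians in the 3 exposures were -0.15, -0.18 and -0.14. Without adjustment 8 targets at 3 h and 5 at 22 h were under 0.05 by limma, as were 6964 of 28596 and 6452 of 28155 probes. POLR1B was named after its values were seen.

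Around SRF, 1 of 5 tested cofactors passed: ELK3, a ternary complex factor, rose by 0.80 with SM30 (SE 0.16, adjusted p = 0.022) and by 0.84 with AS30 at 3 h (SE 0.16, adjusted p = 0.037), and 0 passed at 22 h, with 0 under 0.05 by limma without adjustment. Over all probes 7.49%, 2.52% and 3.58% passed in the 3 exposures. Of 16 cytoskeletal targets of SRF 0 passed in any exposure, with medians of 0.12, -0.079 and -0.014. Without adjustment 4, 5 and 1 of the 16 were under 0.05 by limma, as were 7207 of 28664, 6964 of 28596 and 6452 of 28155 probes. Of 16 genes of the MAP kinase pathway, 1 passed with AS30 at 22 h, where 3.58% of all probes did: MAPK3, the kinase ERK1, rose (0.52, SE 0.11, adjusted p = 0.046). None of the 16 passed with AS30 at 3 h, where 5 were under 0.05 by limma without adjustment, beside 6964 of all 28596 probes. Of 4 tested EGR corepressors and NR4A partners 0 passed in any exposure, and 0 were under 0.05 by limma without adjustment.

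The genes whose log2 signal followed a member most closely over the 18 arrays were found among 11295 genes measured on all of them, by Pearson r. PIM1 was closest to NR4A2 (r = 0.919) and ZCCHC2 to NR4A1 (0.88), with PIM1 also among the closest of NR4A1 (0.858). TBX2 was closest to NR4A3 (0.922), with RELB (0.916) near it, RAPGEF6 to MYC (0.932), PGRMC2 to SRF (0.888) and SLC9D1 to IER2 (0.93). EGR1 lacked a value on 1 array and was not ranked. These r values are a description: the 18 arrays form 6 groups and 5 slides, and group and slide differences enter them.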

How the data were processed

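Total RNA of A549 cells was hybridised to 18 Agilent arrays of 1 colour. The authors deposited a scanner file for each array, written by Agilent Feature Extraction 10.5.1.1 with positions on build hg18, whose columns hold linear spot intensities and flags. Linear intensities are also what the deposited series file of 41093 lines holds, after the authors' quantile normalization, averaging of replicate spots and removal of spots not flagged as positive and significant. Unused value columns numbered 0.

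Groups and letters came from the labels. R 4.3.3 and limma 3.58.1 were used. Control spots were dropped and the log2 processed signal was quantile normalized across all arrays. Spots that were not positive and significant, or that were marked as outliers (a step the study's methods do not name), became missing, and replicate spots were averaged. Removing probes with over 33% missing values left 28665 of 41000, for 21233 genes, and the probe of highest mean signal stood for a gene.

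Treated arrays were set against same-letter controls, and the 9 log2 ratios entered 1 limma fit of 3 classes (6 residual degrees of freedom). Control groups were compared with each other in a limma fit of all 18 arrays. Adjustment was by Benjamini-Hochberg across the probes of a comparison. Both fits were run on simulated arrays with known changes added to SM30 at 3 h. The simulated arrays were independent, with no slide effect and no pairing by letter. The comparisons of controls were not part of that test. With 3 arrays a group, precision is set by their small number. Where a group lay near background on every array, a bound was taken from the lowest well-above-background signal of each array, or from the probe itself if brighter.

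Every member and probe is named, with GAPDH, and from each list the called genes that rose and fell most in an exposure. For the MAP kinase pathway list, the SM30 result is not reported here. For members with 18 values, the 3 genes of highest Pearson r were found and the closest are named. The members and gene lists were chosen with earlier results of these data known. Symbols came from RefSeq for 18772 kept probes. Promoter windows of 250 bases came from RefSeq (GRCh38.p14), and CArG boxes, TGACGT, GCGGGGGCG, AAAGGTCA and CACGTG were searched on both strands. Alternatives were another scaling, background correction or filter, the deposited series file, other uses of letters, slides and controls, and leaving out each replicate.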

Additional observations from a re-analysis of the deposited data

How the results depend on the processing

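Over 966 combinations of a gene, a comparison and an alternative, 884 kept the side of the threshold, 67 lost a call, 15 gained one and 0 reversed a called direction. Most of the 966 were of a gene not called in the main fit, which had no call to lose. EGR1 lost its call in 5 of 21 alternatives with SM30 and in 6 of 21 at 22 h. For NR4A2 it was 7 of 22 and for SRF 11 of 22 with each particle at 3 h. NR4A3 lost its call in 13 of 22 at 22 h. Of the control calls, EGR1 by time was lost in 5 of 15 and IER2 in 2 of 15, and the others were kept. The sign of a change that was not called differed in 32. Of the 3 genes called with SM30 at 3 h, SRF was not called with normexp or with no dim filter, where EGR1 and NR4A2 were. With detection on all arrays NR4A2, SRF and also NR4A3 were called. The SM30 call of EGR1 was lost with outlier spots kept. That of NR4A2 was lost with slide as a random block and with the 3 controls averaged. With slide as a fixed block 0 of the 3 were called. Of the 2 called with AS30 at 3 h, 1 was called with 75th percentile scaling, with normexp (offset 50), with no dim filter and with no replicate block, and 0 with slide as a fixed block or with the class fitted alone. Of the 2 called with AS30 at 22 h, 1 was called with normexp, no dim filter, detection on all arrays, outlier spots kept, the authors' table, no replicate block or slide as a random block, and 0 with slide as a fixed block or the class alone. With the 3 controls averaged before the ratio, 1 gene was called for SM30 minus AS30 (MYC) and 2 were for 22 h minus 3 h (NR4A3 and SRF), and slide as a random block called 1 for the latter (SRF), where the main fit called 0. For the controls by time, 1 of 2 calls was kept with detection on all arrays, outlier spots kept, the authors' table or slide as a fixed block, and for SM30 against AS30 controls 1 of 2 with 75th percentile scaling or detection on all arrays. EGR1, which lacks a value on 1 array, is not tested with detection on all arrays. Otherwise the cause of these differences was not tested.

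Leaving out 1 replicate gave 0 to 4 calls for SM30, 0 to 3 for AS30 at 3 h, 0 to 2 for AS30 at 22 h, 0 for both differences of responses, 1 to 2 for controls by time and 1 to 3 for SM30 against AS30 controls. The check made did not settle whether the letters pair the arrays: the correlation of same-letter deviations ran from -0.0914 to 0.476, over 0.1 in 4 of 9 pairs, and 6 of 9 treated arrays correlated best with the control of their own letter. For replicates A, B and C it was 0.0878, -0.00402 and -0.0127 with SM30, where A alone was best with its own letter. With AS30 it was 0.476, -0.0914 and 0.0789 at 3 h, with A and C best. At 22 h it was 0.11, 0.104 and 0.19, with every replicate best. With no replicate block 2 genes, EGR1 and SRF, were called with SM30, and with a replicate block by letter the control comparisons called 2 genes each, as in the main fit. Slide as a fixed block could not be fitted for SM30 against AS30 controls, which share no slide. Both fits with slide left out the pairing by letter. Within a slide, a value with no test, EGR1 differed by -1.30 with SM30 and -2.13 with AS30 at 22 h, NR4A2 by 1.48 and -0.92, and SRF by -0.54 and -0.01. These values rest on the same arrays as the fit with slide as a fixed block and are not a separate check. Signal over background limits EGR2, EGR3, EGR4 and NR4A2 in the AS30 controls.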
